A study of Bos taurus with 6 samples.

Results

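The mevalonate pathway builds isoprenoids and, through squalene, cholesterol from acetyl-CoA. It is one of the best-known targets of the sterol-sensing transcription factor SREBP2, which is released to the nucleus when membrane cholesterol is low and raises the transcription of nearly all of its enzymes. In muscle cells the pathway supplies membrane cholesterol, the lipid anchors of small GTPases, dolichol and ubiquinone. The enzymes described here lead from acetyl-CoA to squalene epoxide. The rule listed 9 of them and required a gene name for the Ensembl identifier, and such names could be taken only from a sheet of mRNAs that the study had called differentially expressed. ACAT2, HMGCS1, MVK, MVD, IDI1, FDFT1 and SQLE met the rule, so 7 of the 9 enzymes could be described out of 26332 mRNAs in the table. The copy of the sheet used here was shortened, so a gene without a name below may still have been called by the study. PMVK and FDPS had no identifier paired with their symbol in it and were not analysed here. The enzymes were thus chosen by their difference between resveratrol and control as the study had called it, and the differences between the groups are given as a description and without a test.

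The cells were primary myoblasts, precursors that fuse to form muscle fibers, grown from the longissimus dorsi muscle of fetal cattle. In the RSV group 3 cultures received 20 μM resveratrol, a plant polyphenol, in differentiation medium for 4 days, and in the DMSO group 3 cultures received the solvent alone in that medium. The resveratrol was itself dissolved in DMSO. The study's methods describe 3 independent experiments per group without saying whether these were separate animals, so the spread between the libraries of a group may be technical, biological or both. Values are normalized reads, that is, whole reads of a library divided by its size factor, which corrects for sequencing depth. The reads of single libraries were recovered from the deposited group means and could not be tied to a numbered sample, so the libraries are called a, b and c within each group.

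The recovered reads summed to between 12503583 and 13188493 in the RSV libraries and to between 11026810 and 12057167 in the DMSO libraries, with size factors from 1.05 to 1.09 and from 0.886 to 0.964. A linear model on precision-weighted log2 reads, limma voom, was fitted to the 14727 mRNAs whose mean reached 10 normalized reads. It called 2525 lower and 2460 higher in RSV at a Benjamini-Hochberg adjusted p under 0.05. With the total reads of each library as the scale, the split was 2037 lower and 3015 higher. The median log2 fold change of all tested mRNAs was 0.01. RSV library c was the extreme one of its group, being the lowest RSV library for 73.3% of the mRNAs called lower and the highest for 65.9% of those called higher. Few markers had a name, and those that did had it only as differentially expressed mRNAs. The fusion factor MYMK was called higher in RSV (log2 fold change 0.70, standard error 0.08), and the authors' means of the embryonic myosin MYH3 were 34968 in RSV and 21157 in DMSO normalized reads. The other 9 of 11 myogenic markers, and all 3 adipocyte and 2 endothelial markers, had no name and were not analysed here. Of 5 fibroblast markers 4 had a name, and all 4 were abundant and lower in RSV, while 17.1% of all tested mRNAs were called lower. As their names came from the contrast, nothing is read from this count. The authors' means of COL3A1, DCN and THY1 were 31167, 22591 and 24670 normalized reads in RSV and 45154, 34252 and 33238 in DMSO, and PDGFRA had a log2 fold change of −0.42 (standard error 0.05). The part of the cell mixture in the values below was not tested, and in bulk RNA a smaller share of cells expressing an enzyme cannot be told apart from less of its mRNA per cell.

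All 7 enzymes were lower in every RSV library than in any DMSO library. Their log2 fold changes from limma voom ranged from −2.40 for HMGCS1 to −0.95 for MVK, with a median of −1.55. All 7 were called lower, and among all tested mRNAs 17.1% were called lower. Groups without overlap in this direction were found for 26.3% of all tested mRNAs. Since the enzymes had a name only as differentially expressed mRNAs, nothing is read from these counts. For scale, 3.80% of all tested mRNAs had a fold change as low as that of MVK or lower, and 38 mRNAs (0.258%) had one as low as that of HMGCS1 or lower.

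**Figure D1:**
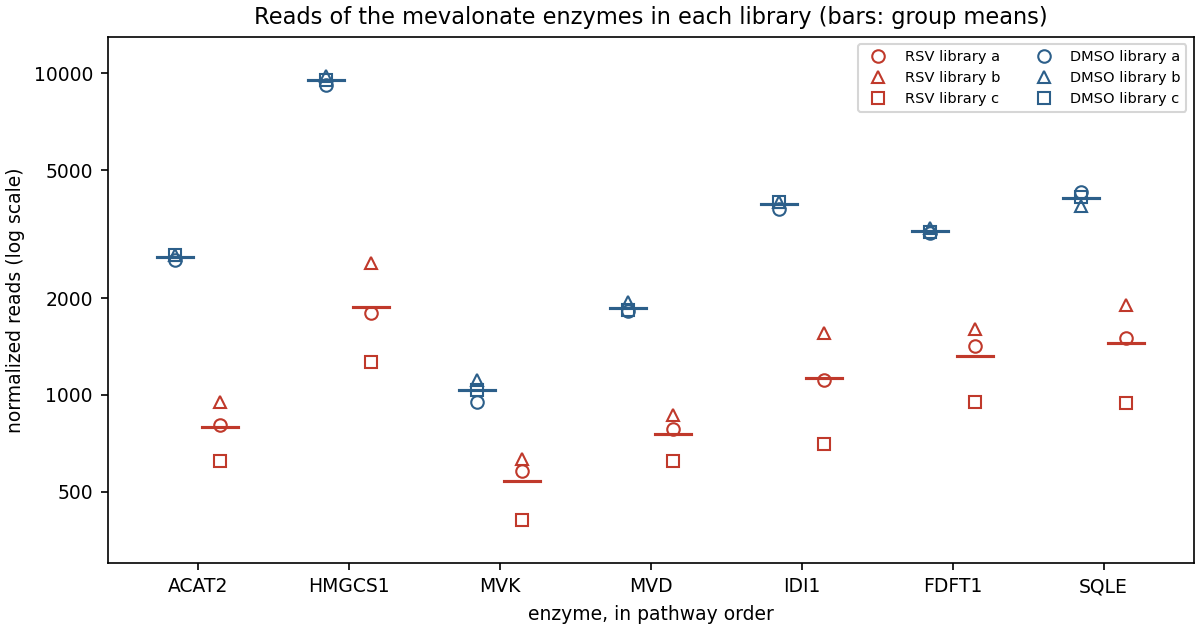
Normalized reads (log scale) of the 7 enzymes in pathway order, with 1 point per library and a bar at the mean of each group of 3. The DMSO points lie close together and above every RSV point, and in RSV library b is the highest and library c the lowest for each enzyme.

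The first enzymes make HMG-CoA from acetyl-CoA. ACAT2 (ENSBTAG00000002827), the cytosolic thiolase that joins a pair of acetyl-CoA molecules, had 806, 952 and 623 normalized reads in RSV libraries a, b and c and 2634, 2723 and 2720 in DMSO libraries a, b and c. The RSV libraries were spread over a wider range than the DMSO libraries, and the lowest DMSO value was 2.77 times the highest RSV value. The log2 fold change was −1.78 (standard error 0.13), a level 3.44-fold lower. HMGCS1 (ENSBTAG00000011839), the cytosolic HMG-CoA synthase that adds the next acetyl unit, had 1797, 2566 and 1264 normalized reads in RSV and 9227, 9808 and 9520 in DMSO. It showed the largest fall of the 7 in each of the 3 RSV libraries. Its log2 fold change was −2.40 (standard error 0.20), a level 5.28-fold lower, and the lowest DMSO value was 3.60 times the highest RSV value.

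The next enzymes turn mevalonate into the activated isoprene unit. MVK (ENSBTAG00000005183), the kinase that adds the first phosphate to mevalonate, had 578, 632 and 409 normalized reads in RSV and 949, 1115 and 1033 in DMSO. It showed the smallest fall of the 7 in each RSV library and its groups lay closest, though the highest RSV value stayed below the lowest DMSO value. The log2 fold change was −0.95 (standard error 0.15), a level 1.94-fold lower. MVD (ENSBTAG00000012059), the decarboxylase that yields isopentenyl diphosphate, had 780, 867 and 624 normalized reads in RSV and 1823, 1946 and 1837 in DMSO. Its log2 fold change was −1.31 (standard error 0.11), a level 2.49-fold lower. MVD had the narrowest spread of the 7 within RSV, with a coefficient of variation of 16.2% (n = 3). IDI1 (ENSBTAG00000004075), the isomerase that interconverts isopentenyl and dimethylallyl diphosphate, had 1110, 1559 and 703 normalized reads in RSV and 3776, 3977 and 3978 in DMSO. The IDI1 value of RSV library b was 2.22 times that of library c, the widest gap among the 7. Its log2 fold change was −1.87 (standard error 0.23), a level 3.65-fold lower.

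The last enzymes commit the pathway to sterols. FDFT1 (ENSBTAG00000012432), the squalene synthase, had 1416, 1600 and 951 normalized reads in RSV and 3178, 3303 and 3219 in DMSO. Its DMSO libraries differed from each other by little more than counting error, with a standard deviation on the log2 scale of 0.03 beside a counting error of 0.03. The log2 fold change was −1.32 (standard error 0.16), from a mean of 3233 ± 63.3 in DMSO to 1322 ± 335 in RSV (SD, n = 3). SQLE (ENSBTAG00000005498), the monooxygenase that makes squalene epoxide and is a known control point of the sterol branch, had 1499, 1898 and 942 normalized reads in RSV and 4277, 3877 and 4111 in DMSO. Again no RSV library reached the DMSO range, and library b had 2.01 times the value of library c. The log2 fold change was −1.55 (standard error 0.21), a level 2.94-fold lower.

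The enzymes did not fall in proportion. Differences between enzymes were taken within libraries, as the log2 ratio of their normalized reads in RSV minus that in DMSO, so that a shift shared by all genes of a library drops out. The enzymes were ordered by their log2 fold changes in these same libraries. Mean differences along the order were thus positive by choice, above all between its ends, and the standard errors do not allow for this. HMGCS1 fell further than IDI1, the next in order, by 0.53 on the log2 scale (standard error 0.05), and the difference had this sign in 3 of 3 RSV libraries. IDI1 and ACAT2 did not part beyond their spread, with a difference of 0.09 (standard error 0.16) whose sign turned in RSV library b. ACAT2 and SQLE were 0.23 apart (standard error 0.13), with this sign in 2 of 3 RSV libraries. SQLE and FDFT1 were 0.23 apart (standard error 0.09) with the same sign in all 3, yet the ratios of the RSV and DMSO libraries overlapped. FDFT1 and MVD were level, at 0.01 (standard error 0.09). MVD fell further than MVK by 0.36 (standard error 0.07) in 3 of 3 RSV libraries, and the ratios of the groups did not overlap. Between the ends of the order, HMGCS1 and MVK, the difference was 1.45 (standard error 0.14). The order thus held HMGCS1 at one end and MVK at the other, with the enzymes between them only partly separated.

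**Figure D2:**
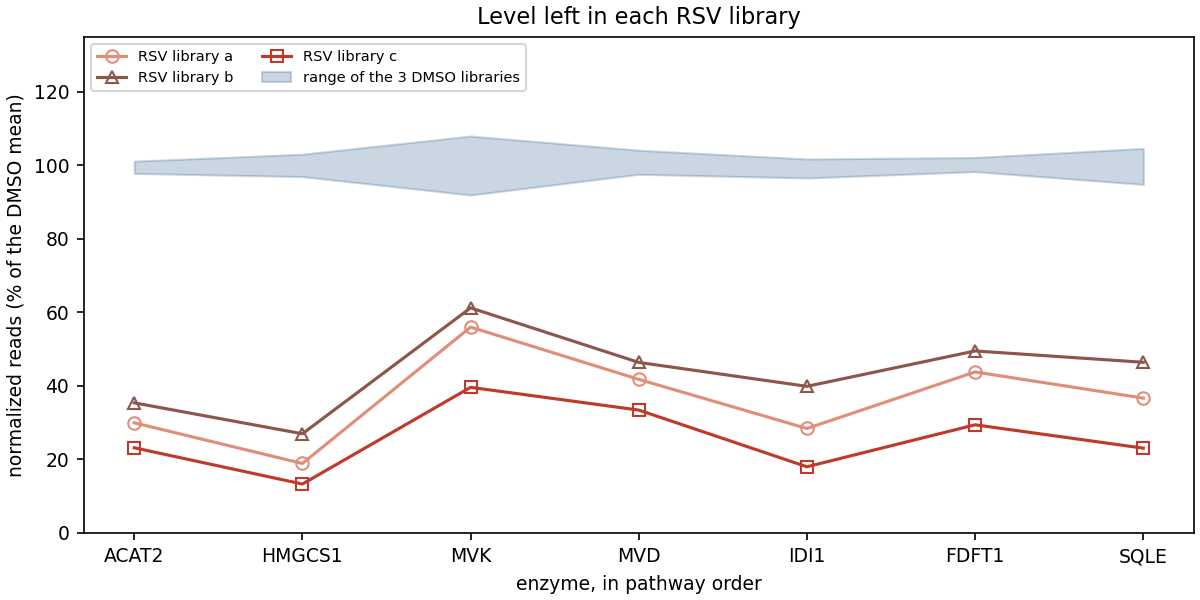
Normalized reads in each RSV library as a percent of the DMSO mean, by enzyme in pathway order, with the range of the 3 DMSO libraries shaded. The 3 RSV lines keep the same order throughout, from 39.6% to 61.2% for MVK and from 13.3% to 27.0% for HMGCS1.

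Within the RSV group the enzymes moved together. Library b was the highest, library a the middle and library c the lowest for 7 of 7 enzymes. This order was found for 28.4% of all tested mRNAs and for 53.0% of those called lower. The median enzyme stood at 46.4% of its DMSO mean in library b, at 36.7% in library a and at 23.1% in library c. HMGCS1 was left with 27.0%, 18.9% and 13.3% of its DMSO mean in libraries b, a and c, and IDI1 with 39.9%, 28.4% and 18.0%. MVK was left with 61.2%, 56.0% and 39.6% in the same order. The ranks of the enzymes by their fall were nearly alike in the 3 libraries, with HMGCS1 first and MVK last in each, while ACAT2 ranked 3, 2 and 4 and MVD 5, 4 and 6 in libraries a, b and c.

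The RSV libraries differed from each other far more than the DMSO libraries. The standard deviation of log2 normalized reads over the 3 RSV libraries lay between 0.24 for MVD and 0.58 for IDI1, with a median of 0.39. Over the 3 DMSO libraries it lay between 0.03 for ACAT2 and 0.12 for MVK, with a median of 0.04. The ratio of the medians was 8.92, and without RSV library c it was 3.86. The wider spread in RSV was found for 7 of 7 enzymes. The median spread of mRNAs of at least the same mean, given below, was also wider in RSV, so nothing is read from this count. Counting error was small beside the RSV spread. The reads of the RSV libraries give a standard deviation of 0.03 for HMGCS1 and 0.06 for MVK from counting alone. Among 4711 mRNAs with a mean at least as high as that of the lowest enzyme, the median standard deviation was 0.09 in RSV and 0.05 in DMSO, and among the 1257 of these called lower it was 0.11 and 0.04. The spread of IDI1 in RSV was larger than that of 99.1% of the 4711 mRNAs, that of HMGCS1 larger than 98.5%, that of SQLE larger than 98.6% and that of MVD larger than 90.9%. In DMSO the same enzymes lay at 39.5%, 40.4%, 70.4% and 49.7%. ACAT2 and FDFT1 lay at 94.8% and 97.0% in RSV and at 19.0% and 20.0% in DMSO, and MVK at 95.6% in RSV and 94.6% in DMSO. Across the 7 enzymes, a lower log2 fold change went with a larger RSV spread at a Pearson correlation of −0.58 and a Spearman correlation of −0.57, over enzymes measured in the same 6 libraries. Both quantities use the same RSV values, so a low library c lowers the fold change and widens the spread at once. The enzymes are also not independent of each other, and nothing is read from these correlations.

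**Figure D3:**
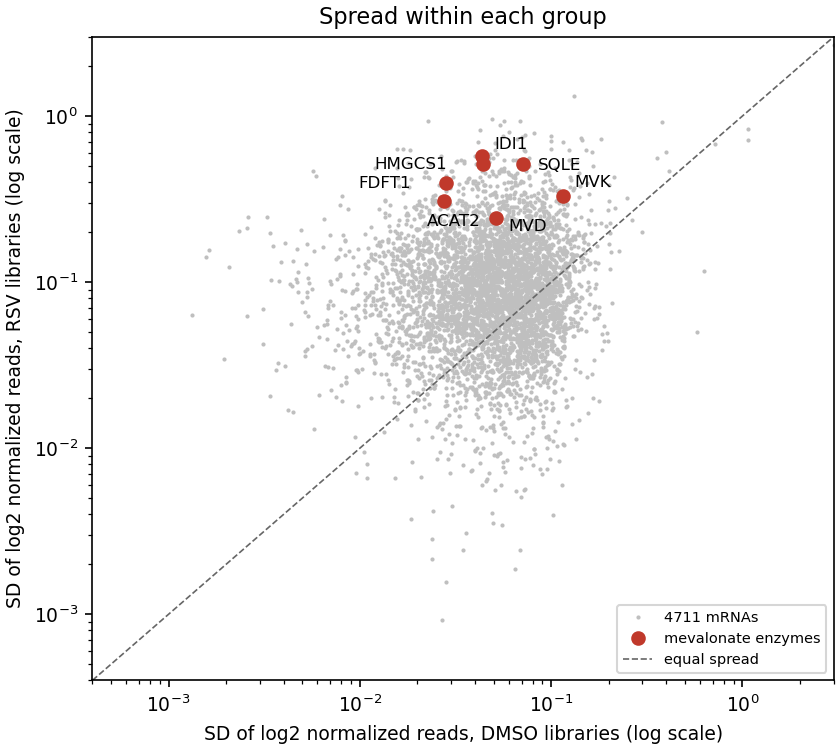
Standard deviation of log2 normalized reads over the 3 RSV libraries against that over the 3 DMSO libraries (both axes log scale) for the 7 enzymes and for 4711 mRNAs of at least the same mean, with a dashed line of equal spread. The enzymes sit in the upper part of the cloud for RSV and are spread across it for DMSO, from ACAT2 and FDFT1 on the left to MVK on the right.

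The genes around the pathway were taken from lists written with the study's sheet known, and each named gene in them had its name as a differentially expressed mRNA. Of the genes of acetyl-CoA supply and the first steps, 3 are described. ACLY, the citrate lyase that makes cytosolic acetyl-CoA, had 4031, 4348 and 3303 normalized reads in RSV and 6954, 6968 and 6922 in DMSO (log2 fold change −0.84, standard error 0.09). ACSS2, which makes acetyl-CoA from acetate, had 80.9, 99.7 and 81.6 in RSV and 228, 263 and 225 in DMSO (log2 fold change −1.45, standard error 0.14). ACAT1, the mitochondrial counterpart of ACAT2, had 1126, 1159 and 1008 normalized reads in RSV and 1554, 1598 and 1664 in DMSO (log2 fold change −0.55, standard error 0.07). These 3 genes were called lower, beside 17.1% of all tested mRNAs, and nothing is read from this count since the contrast gave them their names. ACLY and ACAT1 had their lowest RSV value in library c, as did the 7 enzymes and 73.3% of all mRNAs called lower.

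Of 11 sterol enzymes that act after squalene epoxide, 9 had a name, and 8 of these were called lower and 1 higher, beside 17.1% of all tested mRNAs called lower. Their names, too, came from the contrast, so nothing is read from this count. The median log2 fold change was −1.47 for the 9, −1.55 for the mevalonate enzymes and 0.01 for all tested mRNAs. The library order b, a, c was found for 7 of the 9, beside 28.4% of all tested mRNAs and 53.0% of those called lower. EBP, the sterol isomerase that was higher in RSV (log2 fold change 0.51, standard error 0.10), had its highest RSV value in library c.

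**Figure D4:**
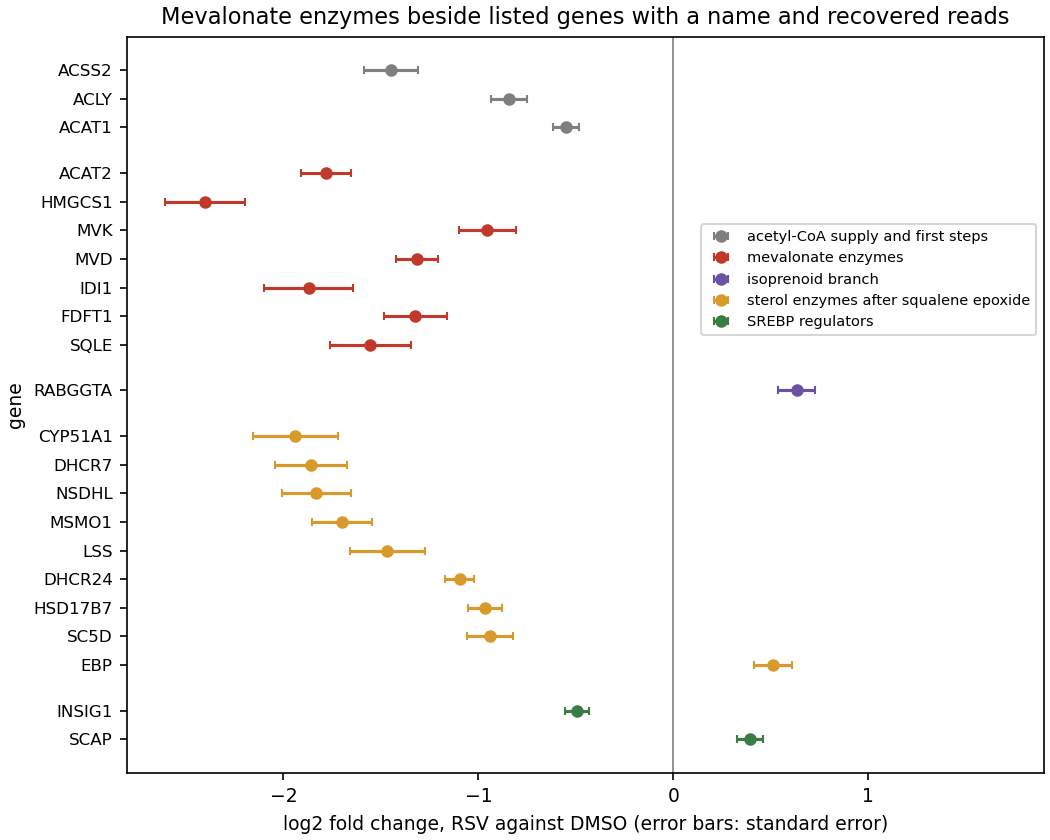
Log2 fold change of RSV against DMSO from limma voom, with standard errors, for the 7 mevalonate enzymes and for the genes of the lists described that had a name and recovered reads. The enzymes lie between −2.40 and −0.95. HMGCS1 lies below every sterol enzyme, the lowest of which is at −1.94, and the other enzymes lie among the sterol enzymes called lower. RABGGTA, EBP and SCAP lie above 0.

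The 5 named mRNAs with a profile nearest to the median profile of the 7 enzymes were found by the root mean square distance of log2 values over the 6 libraries, each centred on the DMSO mean, among 1743 named mRNAs. They were SEMA3D (distance 0.05), FGF7 (0.06), LSS (0.08), CTHRC1 (0.08) and C1QTNF6 (0.09). SEMA3D, a secreted semaphorin, had 903, 1097 and 509 normalized reads in RSV and 2376, 2369 and 2298 in DMSO. FGF7, a fibroblast growth factor, had 340, 418 and 231 in RSV and 940, 905 and 973 in DMSO. LSS, the lanosterol synthase that takes up squalene epoxide, had 1726, 1978 and 1064 in RSV and 4092, 4418 and 4249 in DMSO. Only LSS of these 5 acts in sterol synthesis. The enzymes themselves lay between 0.06 for SQLE and 0.60 for HMGCS1 from their own median profile, so the nearest of the other mRNAs were as close to it as the nearest enzyme.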

How the data were processed

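Per the labels and the study's methods, mRNA of 3 RSV and 3 DMSO cultures was sequenced as paired-end reads on an Illumina HiSeq. The mRNA aligner, counter and annotation are not given in the sources used here. The authors scaled the read counts by DESeq size factors, and the deposited table holds the mean of each group, with their log2 fold change, p-value and adjusted p-value. Of these the digits of the log2 fold change served only to place lost decimal points, and the p-values and the miRNA part of the table were not used. Means printed as the authors' are those of genes over the highest mean searched.

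Each mean, printed to 15 significant digits, was written as a sum of whole reads over 3 size factors. Of 20459 mRNAs with reads, 20157 (98.5%) had a single combination, and 302 had a mean above 10000 and were not searched. Combinations were sought within limits on the spread between libraries, and without such limits for the 7 enzymes, which again had 1 each. By chance at most 0.0234 further combinations were expected for HMGCS1 and 0.00291 for any other. Levels of different genes were not compared, since transcript lengths were not used.

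The test was voom from limma 3.58.1 under R 4.3.3, with 0.5 reads added on the log2 scale, a minimum mean of 10 normalized reads and Benjamini-Hochberg adjustment over all tested mRNAs. Other steps used Python 3.11.15, numpy 2.4.6, pandas 2.3.3, numba 0.67.0 and matplotlib 3.10.9. Both the recovery and the fit were tried on simulated reads. These were drawn with the same spread between libraries in both groups, so the fit was not tested for spreads as unequal as those of the enzymes. Names came from a shortened copy of the study's sheet of differentially expressed mRNAs, which pairs 1863 identifiers with a symbol, so a missing name does not show that the study left a gene uncalled. RefSeq's list of genes for ARS-UCD2.0 holds the symbols of all 9 listed enzymes and pairs none with an Ensembl identifier. The enzymes, lists and naming rule (all listed genes with a name, and the 5 nearest profiles) were chosen with earlier results of these data known, and some listed genes are not reported here. The standard errors of log2 fold changes come from limma's moderated variance, pooled over both groups and drawn towards that of all tested mRNAs. For mRNAs of wide spread, such as the enzymes in RSV, this gives a smaller error than their own libraries would. The standard errors of differences between enzymes use the spread of these libraries alone. Alternatives were other minimum means, no weights, another scale, stricter calls, another pseudocount, the ratio of deposited means and each library left out.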

Additional observations from a re-analysis of the deposited data

How the results depend on the processing

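The log2 fold changes of the 7 enzymes moved by less than their spread between RSV libraries in all 70 values under no weights, scaling by total reads, a pseudocount of 5 normalized reads, the ratio of deposited means and each library left out. That yardstick is wide, and leaving out a single RSV library can hardly move the group mean by as much. Nothing is therefore read from the count of 70. The median log2 fold change of the enzymes lay between −1.78 without RSV library b and −1.28 without RSV library c. All 7 were called lower in the 12 alternative fits and at an adjusted p under 0.01, and 6 of 7 with a minimum absolute log2 fold change of 1, which MVK missed at −0.95. The same contrast had chosen them. With 1 library left out, between 1303 and 3013 of all mRNAs were called lower and between 1154 and 3194 higher. Leaving out DMSO library a, b or c gave 1400, 1416 and 1303 lower and 1209, 1284 and 1154 higher. Leaving out RSV library a, b or c gave 1762, 2727 and 3013 lower and 1698, 2734 and 3194 higher. Why these counts moved was not tested. An adjusted p under 0.01 left 1091 lower and 1005 higher, and a minimum absolute log2 fold change of 1 left 434 lower and 550 higher, by their own construction. Of all calls 50.7% were lower with size factors and 40.3% with total reads. The ratio of the RSV to the DMSO spread of the enzymes ranged from 3.86 without RSV library c to 12.9 without DMSO library a, and was 8.31 by the coefficient of variation. No paired analysis was possible because the recovered libraries carry no replicate number. For 302 highly expressed mRNAs, SREBF2 among them, only the group means were at hand and no error is given.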

Other observations

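Of 6 genes that steer the pathway, INSIG1 and SCAP had recovered reads, and neither had the library order of the 7 enzymes. That order was found for 28.4% of all tested mRNAs, for 53.0% of those called lower and for 14.6% of those called higher. Its absence is thus common, and nothing is read from it. INSIG1, which holds the SREBP escort protein in the endoplasmic reticulum when sterols are high and is itself an SREBP target, had 1831, 1948 and 2100 normalized reads in RSV libraries a, b and c and 2723, 2804 and 2746 in DMSO, a log2 fold change of −0.49 (standard error 0.06). Its highest RSV value was in library c, where the 7 enzymes were lowest. SCAP, the escort protein, had 3897, 3989 and 4299 in RSV and 2902, 3311 and 3064 in DMSO, a log2 fold change of 0.39 (standard error 0.07). It was called higher and was highest in library c, as were 65.9% of all mRNAs called higher. For SREBF2, which encodes SREBP2, the authors' means were 6449 in RSV and 10459 in DMSO normalized reads. INSIG2, MBTPS1 and MBTPS2 had no name.

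Of 12 genes that take isoprenoids into other products, 1 had a name. RABGGTA, a subunit of the transferase that attaches geranylgeranyl groups to Rab proteins, had 571, 537 and 566 normalized reads in RSV and 328, 410 and 345 in DMSO, a log2 fold change of 0.63 (standard error 0.09). Its name, too, came from the contrast.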
